A study of Homo sapiens with 7 samples.

Results

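The 10 genes described here belong to the Notch signaling pathway and comprise the receptors NOTCH1, NOTCH2 and NOTCH3, the ligands JAG1, JAG2 and DLL1, the DNA-binding factor RBPJ and the target genes HES1, HEY1 and HEY2. They were chosen by name, and all 10 were found among the 21305 genes of the deposited expression table. RNA was sequenced from 501Mel cells, an established human melanoma line of melanocytic character, in 7 libraries. The cells were stably transduced pools carrying a doxycycline-inducible short hairpin RNA, and every library, control included, came from doxycycline-treated cells harvested 3 days after induction. The 3 shlacZ libraries carried a control hairpin against the bacterial lacZ gene, whereas 2 libraries each carried sh4 or sh8, both directed against the long non-coding RNA GRASLND. The comparison asks how the transcriptome of a differentiated melanoma line changes when GRASLND is depleted, and it is followed here for the Notch genes.

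Notch signaling is a short relay between neighbouring cells. A ligand of the Jagged or Delta family on one cell binds a Notch receptor on the next, proteases release the intracellular part of the receptor, and this fragment enters the nucleus and joins RBPJ and a Mastermind coactivator at target promoters. HES and HEY genes are the classical direct targets and encode transcriptional repressors. In the pigment lineage the pathway is known for maintaining melanocyte stem cells, and HES1 is one of the genes through which it does so. None of this was measured in these cells, where only RNA levels were determined.

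JAG1 and HES1 were lower with both hairpins, while HEY1 and HEY2, targets of the same pathway, were higher with sh4. HES1 fell to 0.337 of the control level with sh4 and to 0.553 with sh8, and JAG1 to 0.629 and 0.519 of the control level. HEY1 stood at 1.83 times and HEY2 at 1.90 times the control with sh4. The receptors NOTCH1, NOTCH2 and NOTCH3 and the ligands JAG2 and DLL1 passed the test as reported in no comparison. Under some other settings of the test, NOTCH1 or NOTCH3 passed with sh4. With sh4, HES1 and both HEY genes thus moved in opposite directions.

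Because RBPJ recognises the core TGGGAA, best as GTGGGAA, the 250 bases before the RefSeq transcription start (GRCh38.p14) were searched on both strands for HES1, HEY2 and JAG1, and these windows are shown because they belong to the target that fell, a target that rose and the ligand that fell. Capitals mark TGGGAA or, on the other strand, TTCCCA, and each window is printed 5′ to 3′ on the strand of its gene, at chr3:194135898-194136147 (plus strand) for HES1, chr6:125749382-125749631 (plus strand) for HEY2 and chr20:10674000-10674249 (minus strand) for JAG1.
HES1: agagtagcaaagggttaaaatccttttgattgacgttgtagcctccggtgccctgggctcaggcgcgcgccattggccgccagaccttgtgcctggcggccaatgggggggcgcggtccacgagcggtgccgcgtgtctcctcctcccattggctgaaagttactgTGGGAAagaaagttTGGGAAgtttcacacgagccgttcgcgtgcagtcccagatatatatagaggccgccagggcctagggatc
HEY2: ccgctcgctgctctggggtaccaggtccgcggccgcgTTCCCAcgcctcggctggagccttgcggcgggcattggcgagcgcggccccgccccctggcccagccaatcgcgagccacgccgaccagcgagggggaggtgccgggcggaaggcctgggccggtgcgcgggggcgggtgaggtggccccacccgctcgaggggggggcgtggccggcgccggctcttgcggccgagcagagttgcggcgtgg
JAG1: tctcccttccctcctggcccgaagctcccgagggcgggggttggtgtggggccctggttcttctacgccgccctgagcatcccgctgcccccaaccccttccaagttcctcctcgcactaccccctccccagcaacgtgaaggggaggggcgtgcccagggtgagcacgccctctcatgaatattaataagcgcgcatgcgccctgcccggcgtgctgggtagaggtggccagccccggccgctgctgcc
The HES1 window held 2 copies on the sense strand, beginning 84 and 70 bases before the start, and the first of them lay within GTGGGAA. The HEY2 window held 1 copy on the opposite strand, beginning 213 bases before the start, also within GTGGGAA, and the JAG1 window held none. Among 35116 promoter windows of this length, 20.8% held TGGGAA and 5.43% the longer GTGGGAA, which contains the core and is therefore counted in both shares. Promoter windows were at hand for 8 of the 10 members, 12 windows in all since RBPJ had several starts, and 3 of the 12 held the core, the remaining one being a window of RBPJ. HEY1 and DLL1 were not searched. The RefSeq start of HEY2 lies inside the GENCODE gene, which begins upstream at chr6:125747664-125761269, while the HES1 gene spans chr3:194136148-194138732 and JAG1 chr20:10637684-10673999.

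Depth and the state of the libraries bear on every value. The deposited values are read counts divided by a size factor for each library (normalized counts), and each was a whole number of reads, to within 0.01 reads, once that factor was undone. The libraries then held 13337317 to 22855232 reads on annotated genes. Among the controls, shlacZ library 1 stood apart. Its mean chi-square per gene was 31.4 and 30.9 against the other control libraries, compared with 9.32 between shlacZ libraries 2 and 3. The same measure was 21.6 between the sh4 libraries and 17.8 between the sh8 libraries. The spread within either hairpin group thus lay between these control values. Nothing in the labels says that libraries of one group came from separate cultures, so p-values measure only the spread between these libraries. The targeted GRASLND stood at 309, 330 and 290 normalized counts in the shlacZ libraries, 175 and 131 with sh4, and 227 and 163 with sh8. All 4 knockdown libraries lay below all 3 controls (exact two-sided permutation p = 0.0571, smallest possible 0.0286). In the fit across all genes GRASLND changed by -1.02 on the log2 scale with sh4 (limma adjusted p = 0.00662) and by -0.68 with sh8, where the test was not passed (limma adjusted p = 0.110). Pooled, the change was -0.85 (limma adjusted p = 0.0402), a call lost under 8 of 17 alternatives, and the sh4 call was lost without the second sh4 library.

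The identity of the cells was checked with marker lists. All 8 melanocytic markers were present, led in the controls by TYRP1 and PMEL, and their summed level was 1.36e+05 to 1.47e+05 normalized counts with shlacZ. It was 5.23e+04 to 6.01e+04 with sh4 and 1.02e+05 to 1.05e+05 with sh8. By the limma test described below, 6 of the 8 melanocytic markers fell with sh4 (MITF, SOX10, PMEL, MLANA, TYRP1 and DCT), where 11.9% of all genes did. With sh8 none passed, where 2.92% of all genes did. Both sh8 libraries were nevertheless below all controls for SOX10, PMEL, MLANA, TYRP1 and DCT, and overlapped them for MITF, TYR and S100B. Pooled, PMEL alone passed (limma adjusted p = 0.0443), where 4.61% of all genes did. Of other cell types, 3 of 8 fibroblast markers (summed level 7.33 to 31.4), 2 of 6 keratinocyte markers (146 to 215), 0 of 5 endothelial markers and 1 of 5 leukocyte markers (CD68, 441 to 675) were listed at all, and the defining PTPRC, EPCAM, KRT14, COL1A2 and PECAM1 were not listed. In a bulk sample, fewer cells of a type and less RNA per cell cannot be told apart. The summed melanocytic markers were thus lower than the controls in every knockdown library and lowest with sh4, whereas JAG1 was lowest with sh8. Their part in the Notch results below was not tested.

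Levels between genes were compared per kilobase of merged exon, in normalized counts per kb. In the shlacZ libraries JAG1 was the most abundant member with 896 ± 72.5 (SD, n = 3), which placed it at the 96.4th percentile of 15408 genes. NOTCH2 followed with 592 ± 34.2, HEY1 with 428 ± 89.4, HES1 with 269 ± 10.3, HEY2 with 168 ± 33.2 and RBPJ with 114 ± 4.49. NOTCH1 at 47.1 ± 5.68, DLL1 at 19.0 ± 1.22 and JAG2 at 7.92 ± 1.26 were low, and NOTCH3 at 1.43 ± 0.76 lay at the 1.1th percentile. No neighbours in this order overlapped over the 3 control libraries. The order also depends on the merged length, which takes in every annotated exon and ran from 2059 bases for HES1 to 16744 for NOTCH2. Separation between libraries does not test that choice of length. In the controls, then, JAG1 and NOTCH2 stood far above the other ligands and the other receptors of the set.

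With sh4 the order changed. HEY1 came first at 783 ± 95.2 normalized counts per kb (SD, n = 2), ahead of JAG1 at 564 ± 9.44 and NOTCH2 at 543 ± 80.5, the latter pair overlapping. HEY2 at 319 ± 55.4 stood above HES1 at 90.6 ± 8.71, the reverse of their order in the controls, and HES1 overlapped RBPJ at 85.4 ± 6.97. With sh8, NOTCH2 at 577 ± 40.7 was the highest, HEY1 at 480 ± 88.7 and JAG1 at 465 ± 36.4 overlapped, and HEY2 at 184 ± 8.91 stood above HES1 at 149 ± 1.54 without overlap. NOTCH3, JAG2, DLL1 and NOTCH1 stayed the 4 lowest members with either hairpin.

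**Figure D1:**
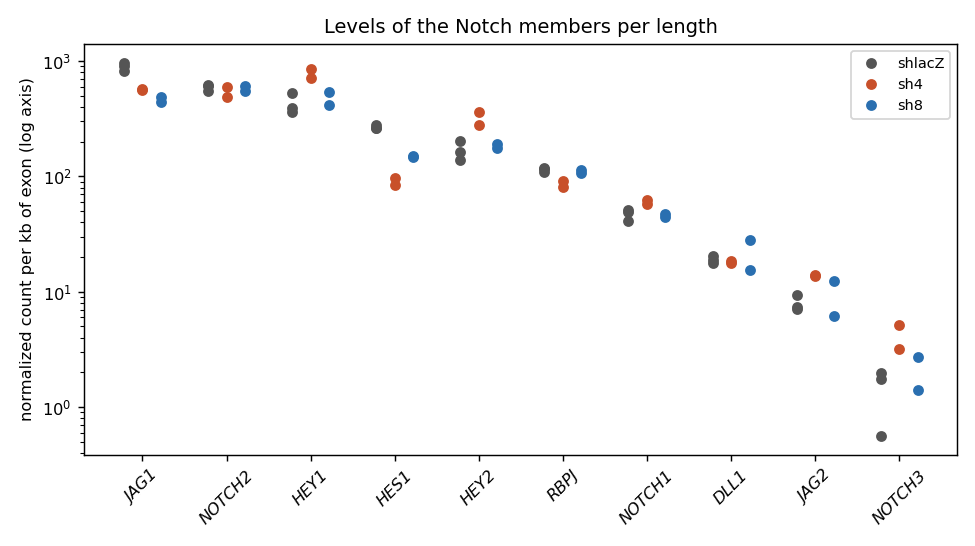
Level of each Notch gene in normalized counts per kb of exon (log axis), 1 point per library, for shlacZ (grey, n = 3), sh4 (orange, n = 2) and sh8 (blue, n = 2). Genes run from the highest to the lowest control mean, from JAG1 at 896 to NOTCH3 at 1.43, and the sh4 points of HEY2 lie above those of HES1.

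Differences were tested with limma on log2(normalized count + 1) for 15420 genes with a mean of at least 10, with Benjamini-Hochberg adjustment over all of them, and a gene is said to rise or fall when its adjusted p was below 0.05. With both hairpins pooled against shlacZ, 2 of the 10 members passed, JAG1 and HES1, both lower, where 4.61% of all genes passed. With sh4, 5 of 10 passed where 22.5% of all genes did: HEY1 and HEY2 were higher (10.5% of all genes were) and JAG1, HES1 and RBPJ were lower (11.9% of all genes). With sh8, JAG1 and HES1 passed, 2 of 10, where 2.92% of all genes did. In the direct comparison of the hairpins HES1 and HEY2 passed, 2 of 10, where 7% of all genes did. Adding the fold threshold used in the study, an absolute log2 fold change over 1, left HES1 alone, both in the pooled comparison (1.99% of all genes) and with sh4 (8.16%). The median log2 fold change of the members was 0.10 in the pooled comparison, 0.15 with sh4 and 0.05 with sh8, beside -0.01 over all genes in each of the 3. Scaling to total reads instead moved the share of higher calls among all genes from 46.9% to 59.4% with sh4, and from 52.5% to 67.1% between the hairpins, without changing the direction of any member that passed in these comparisons. The pooled comparison and both single-hairpin comparisons share the same 3 control libraries.

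**Figure D2:**
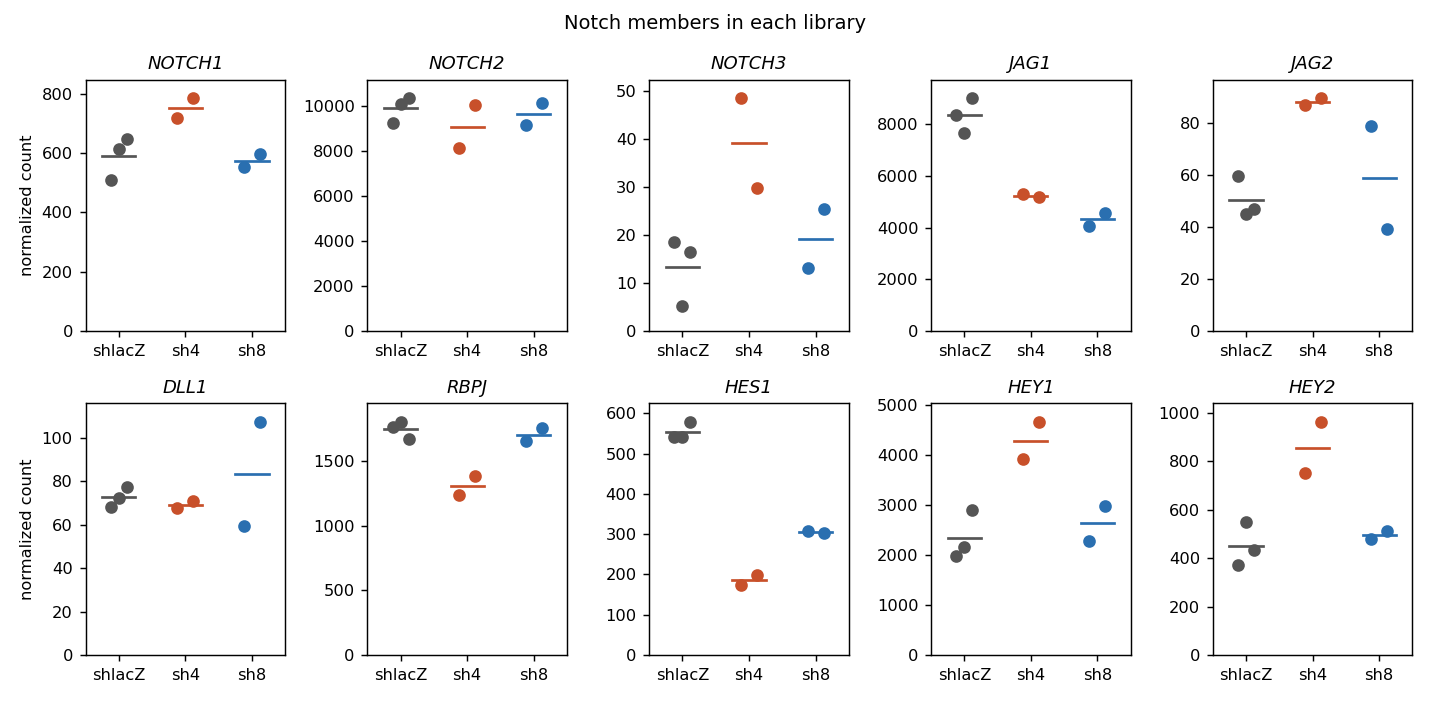
Normalized count of each Notch gene (vertical axes, from 0) in every library, with 1 point per library and a line at the group mean, for shlacZ (n = 3), sh4 (n = 2) and sh8 (n = 2). The JAG1 and HES1 points of both hairpins lie below all control points, and both sh4 points of HEY1 and of HEY2 lie above all other points of those genes.

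Among the receptors of the set, the RNA of NOTCH2 was the most abundant. NOTCH2 had 9261, 10100 and 10357 normalized counts in the shlacZ libraries, 8146 and 10053 with sh4, and 9175 and 10138 with sh8. The groups overlapped throughout, and its log2 fold change was -0.13 with sh4 (95% interval -0.41 to 0.16) and -0.04 with sh8 (-0.32 to 0.25). NOTCH2 shares sequence with the near-identical NOTCH2NL genes, of which NOTCH2NLA, NOTCH2NLB, NOTCH2NLC and NOTCH2NLR were in the table and passed in no comparison. How reads were split between NOTCH2 and these copies is uncertain.

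NOTCH1, the receptor first tied to leukemia, had 510, 613 and 646 normalized counts in the controls, 718 and 784 with sh4, and 554 and 595 with sh8. Both sh4 libraries were above all controls, whereas sh8 overlapped them. With sh4 it stood 0.35 ± 0.15 above the controls on the log2 scale (SE, limma adjusted p = 0.107), which did not pass. When libraries were scaled to total reads, NOTCH1 did pass with sh4. NOTCH3 rested on few reads, from 5 to 43 a library. It had 18.6, 5.24 and 16.5 normalized counts with shlacZ, 48.6 and 29.9 with sh4, and 13.2 and 25.5 with sh8. Again both sh4 libraries were above the controls and the sh8 libraries overlapped them. With sh4 the log2 fold change was 1.60, with a wide interval from 0.35 to 2.86 (limma adjusted p = 0.0668). Without the first shlacZ library NOTCH3 passed as a 6th member with sh4. It did so as well with a pseudocount of 10, with limma-voom on recovered reads and with a replicate block.

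Among the ligands, JAG1, which binds Notch receptors on neighbouring cells, was the one that fell. It had 8357, 7646 and 8994 normalized counts in the shlacZ libraries, 5302 and 5178 with sh4, and 4082 and 4561 with sh8. Every knockdown library was below every control library, with the sh8 libraries lowest. The log2 fold change was -0.81 ± 0.13 in the pooled comparison (SE, limma adjusted p = 0.0131), -0.67 ± 0.12 with sh4 (limma adjusted p = 0.00343) and -0.95 ± 0.12 with sh8 (limma adjusted p = 0.00328). The hairpins did not differ beyond the threshold, the difference being 0.28 with a 95% interval from -0.0042 to 0.56 (limma adjusted p = 0.227). When either the second or the third control library was left out, the pooled call was lost. The sh8 call was lost without the first sh8 library (limma adjusted p = 0.0508) and without the variance trend (limma adjusted p = 0.0622), while the sh4 call held under all 17 alternatives.

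JAG2, a second Jagged ligand, had 59.9, 45 and 47.0 normalized counts with shlacZ, 87.0 and 89.6 with sh4, and 79.1 and 39.1 with sh8. The sh4 libraries lay above the controls and the sh8 libraries fell on both sides of them. Its log2 fold change with sh4 was 0.80 with an interval from 0.08 to 1.52 (limma adjusted p = 0.102). DLL1, a Delta ligand, had 68.1, 72.3 and 77.4 normalized counts with shlacZ, 67.8 and 70.9 with sh4, and 59.3 and 107 with sh8. The groups overlapped, and the intervals of its log2 fold change ran from -0.69 to 0.56 with sh4 and from -0.49 to 0.76 with sh8. DLL1 exons overlap FAM120B on the other strand, a gene of mean level 1543 normalized counts, and whether the counting used strand was not given in the sources used here.

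RBPJ, the factor that carries the Notch fragment on DNA and represses targets in its absence, had 1761, 1799 and 1666 normalized counts with shlacZ, 1232 and 1383 with sh4, and 1652 and 1750 with sh8. The sh4 libraries were below all controls and the sh8 libraries overlapped them. Its log2 fold change was -0.42 ± 0.11 with sh4 (SE, limma adjusted p = 0.0273) and -0.03 ± 0.11 with sh8, and the difference between the hairpins was -0.38, with an interval from -0.66 to -0.10 (limma adjusted p = 0.102). The sh4 call was lost when libraries were scaled to total reads (limma adjusted p = 0.0592), without the variance trend, and when any one of shlacZ libraries 2 and 3 or of the sh4 libraries was left out. The gene lies at chr4:26163455-26435131.

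HES1, the repressor best known as a Notch target, changed most among the members that passed. It had 541, 543 and 579 normalized counts in the shlacZ libraries, 174 and 199 with sh4, and 308 and 304 with sh8. The 3 groups were fully separated, with sh4 lowest and sh8 between. The log2 fold change was -1.21 ± 0.21 in the pooled comparison (SE, limma adjusted p = 0.0195), -1.57 ± 0.15 with sh4 (limma adjusted p = 0.000146) and -0.85 ± 0.15 with sh8 (limma adjusted p = 0.0155). The hairpins differed by -0.71 ± 0.16 (limma adjusted p = 0.0259), lower with sh4. The sh4 call held under all 17 alternatives, whereas the pooled call was lost when shlacZ library 2 or 3 was left out. The sh8 call was lost when one of these or either sh8 library was left out, and the difference between the hairpins when shlacZ library 3 or any single knockdown library was.

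HEY1, of another family of targets, had 1990, 2153 and 2909 normalized counts with shlacZ, 3926 and 4665 with sh4, and 2290 and 2978 with sh8. Both sh4 libraries were above every other library, and sh8 overlapped the controls. On the log2 scale the change was 0.88 ± 0.18 with sh4 (SE, limma adjusted p = 0.00742) and 0.17 ± 0.18 with sh8 (limma adjusted p = 0.659). The difference between the hairpins was 0.71 with an interval from 0.27 to 1.16 and just missed the threshold (limma adjusted p = 0.0605). It did pass under total-read and quantile scaling, with a replicate block and in a fit of sh4 and sh8 alone. Leaving out shlacZ library 1 or shlacZ library 3 also made it pass. Without the second sh4 library the sh4 call was lost (limma adjusted p = 0.0809).

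HEY2, the partner of HEY1 in vessel and heart development, had 372, 548 and 434 normalized counts with shlacZ, 752 and 963 with sh4, and 478 and 512 with sh8. As for HEY1, both sh4 libraries exceeded all others and sh8 overlapped the controls. The log2 fold change was 0.93 ± 0.19 with sh4 (SE, limma adjusted p = 0.00629) and 0.15 ± 0.19 with sh8 (limma adjusted p = 0.703), and here the difference between the hairpins passed at 0.78 ± 0.20 (limma adjusted p = 0.0483). Without the second sh4 library the sh4 call was lost (limma adjusted p = 0.0789), and the difference between hairpins was lost in 7 of 17 alternatives. In the pooled comparison neither HEY1 (0.53, limma adjusted p = 0.200) nor HEY2 (0.54, limma adjusted p = 0.211) passed.

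**Figure D3:**
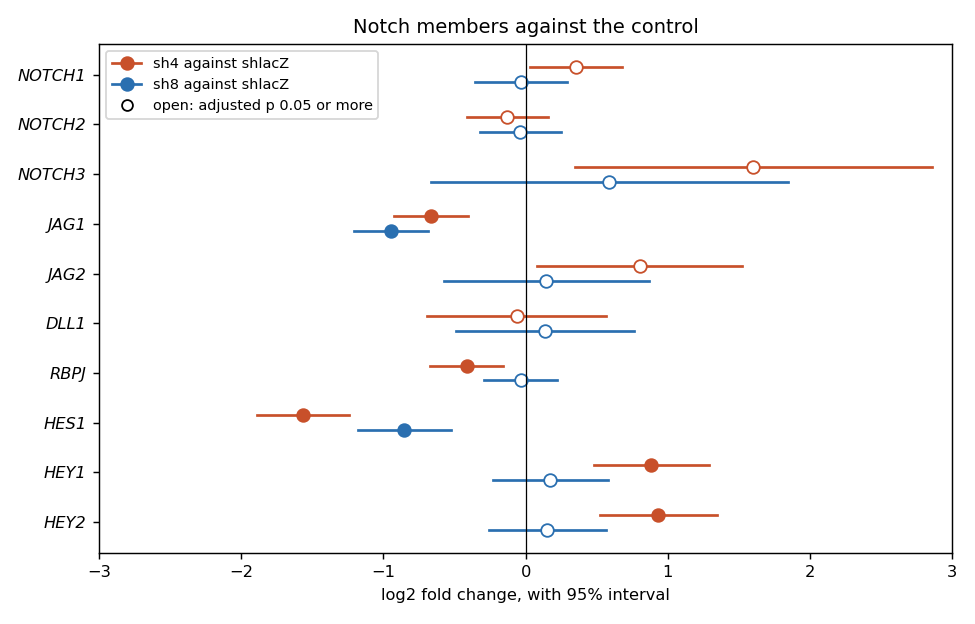
log2 fold change against shlacZ (horizontal axis) of each Notch gene with sh4 (orange) and sh8 (blue), with limma's 95% interval as a bar, where filled points passed at an adjusted p below 0.05. HES1 and JAG1 lie left of 0 with both hairpins, from -1.57 to -0.67, and HEY1 and HEY2 are filled right of 0 with sh4, at 0.88 and 0.93.

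Separation of the groups was counted as well. JAG1 and HES1, 2 of the 10 members, had all 4 knockdown libraries below all 3 shlacZ libraries, where 21.2% of all genes tested had the 4 libraries all above or all below the controls. Leaving out the first shlacZ library, the one that stood apart, kept both pooled calls, at a log2 fold change of -0.80 for JAG1 (limma adjusted p = 0.0355) and -1.23 for HES1 (limma adjusted p = 0.0424). It also kept the 5 members called with sh4 and both called with sh8, among them HEY1 at 0.77 and HEY2 at 0.80 with sh4. Over all genes, however, this step moved the calls from 3464 to 4867 with sh4 and from 451 to 1597 with sh8. Pooled, they went from 711 to 699. The controls left were the replicate pair closest to each other, so keeping a single-hairpin call here was not a strict check.

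The genes whose pattern over the 7 libraries was most like that of HES1 were TBC1D7, PIR and SNHG16. Likeness was the mean absolute difference of log2 levels after each gene's control mean was subtracted, computed for 12050 genes with a mean of at least 50, and it was 0.10 for TBC1D7 and 0.11 for PIR and for SNHG16. PIR, for example, had a mean of 1231 normalized counts with shlacZ, 344 with sh4 and 690 with sh8.

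The rest of the pathway was followed in 8 lists holding 70 genes, of which 62 were in the table and 56 were tested. With sh4, 13 of the 56 passed (23.2%), 7 higher and 6 lower, close to the 22.5% of all genes. With sh8, 4 passed (7.14%, beside 2.92% of all genes), 3 higher and 1 lower. In the pooled comparison 5 passed (8.93%, beside 4.61% of all genes), 4 higher and 1 lower. The median log2 fold change of the 56 genes was 0.07 with sh4 and 0.03 with sh8. The nuclear cofactors held the changes seen with both hairpins, MAML2, MAML3 and TLE4.

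Among 8 coactivators, MAML2 and MAML3 rose in the pooled comparison and with each hairpin. Both encode Mastermind proteins, which bridge the Notch fragment to histone acetyltransferases. MAML3 had 1195, 1081 and 1174 normalized counts with shlacZ, 2971 and 2782 with sh4, and 1605 and 1788 with sh8, fully separated in 3 steps. Its log2 fold change was 1.32 with sh4 (limma adjusted p = 0.000110) and 0.56 with sh8 (limma adjusted p = 0.0329), and the hairpins differed by 0.76 (limma adjusted p = 0.00779). MAML2 had 1510, 1201 and 1168 with shlacZ, 2290 and 2105 with sh4, and 2083 and 2220 with sh8. Its change was alike in size with sh4, at 0.77 (limma adjusted p = 0.00368), and with sh8, at 0.74 (limma adjusted p = 0.0216). The third Mastermind gene, MAML1, did not pass, with 639 and 603 normalized counts in the sh4 libraries beside 704 to 932 in the controls.

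Among 13 corepressors tested, TLE4, a Groucho-type corepressor that HES proteins recruit, rose in the pooled comparison and with each hairpin. TLE4 had 249, 165 and 182 normalized counts with shlacZ, 756 and 669 with sh4, and 378 and 461 with sh8. Its log2 fold change was 1.86 with sh4 (limma adjusted p = 0.000291) and 1.09 with sh8 (limma adjusted p = 0.0196). TLE1 of the same family went the other way with sh4, by -0.75 (limma adjusted p = 0.00874), and differed between the hairpins by -0.88 (limma adjusted p = 0.0156). CTBP2, a corepressor that binds HES and HEY complexes, at -0.41, and SPEN, which RBPJ recruits, at -0.38, also fell with sh4. The CTBP2 call held in only 6 of 17 alternatives and the SPEN call in 7 of 17. Both were lost under total-read and quantile scaling, without the variance trend and without shlacZ library 2 or 3, among others. The calls of MAML2, MAML3 and TLE4 with sh4 held under 17 of 17 alternatives, and those with sh8 under 12, 9 and 12 of 17, each lost when shlacZ library 2 or 3 or either sh8 library was left out. The TLE1 call with sh4 was lost without the second sh4 library.

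Of the other receptors and ligands, NOTCH4 had 34.1, 18.9 and 23.5 normalized counts with shlacZ, 53.1 and 61.9 with sh4, and 25 and 17.3 with sh8. It rose with sh4, by 1.18 (limma adjusted p = 0.0413), and this low-count call was lost in 7 of 16 alternatives, among them quantile scaling. DNER, a neuronal protein described as a Notch ligand, had 24.8, 20.9 and 23.5 with shlacZ, 23.7 and 11.9 with sh4, and 1.32 and 4.55 with sh8. It fell with sh8, by -2.74 (limma adjusted p = 0.0254), again on few reads, and the call was lost when either sh8 library was left out. DNER also differed between the hairpins, higher with sh4 by 2.32 (limma adjusted p = 0.0415), a call that held in 7 of 16 alternatives. Of 2 ligand ubiquitin ligases tested, MIB1, which primes ligands for endocytosis, fell with sh4 by -0.41 (limma adjusted p = 0.0382). This call held in only 7 of 17 alternatives and was lost under both other scalings and without the variance trend, among others.

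Of 9 receptor proteases, FURIN, which cuts the receptor precursor, and NCSTN, a subunit of gamma-secretase, rose with sh4. NCSTN had 1119, 1275 and 1233 normalized counts with shlacZ, 1893 and 2026 with sh4, and 1433 and 1523 with sh8. Its log2 fold change with sh4 was 0.70 (limma adjusted p = 0.00282) and held in 17 of 17 alternatives, and that of FURIN was 0.79 (limma adjusted p = 0.0163), a call lost when either sh4 library was left out. None of 5 tested enzymes of receptor glycosylation passed. Of 9 genes of receptor turnover, NUMB, an inhibitor of Notch receptors, rose in the pooled comparison (0.60, limma adjusted p = 0.0355) and with sh4 (0.63, limma adjusted p = 0.0142), though not when either sh4 library was left out. With sh8 NUMB stood at 0.57 and did not pass (limma adjusted p = 0.0712). DTX3L, a ubiquitin ligase of the Deltex family, passed only in the comparison of the hairpins, higher with sh4 by 0.64 (limma adjusted p = 0.0370). The DTX3L call held in 10 of 17 alternatives.

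A last list held other targets and relatives of the HES and HEY genes, and of its 4 genes tested, HES6 and BHLHE41 fell with sh4, where 11.9% of all genes did. Whether either gene responds to Notch in these cells was not tested. HES6, a HES relative that opposes HES1, had 570, 687 and 677 normalized counts with shlacZ, 359 and 299 with sh4, and 352 and 512 with sh8. All 4 knockdown libraries were below the controls, and the log2 fold change was -0.78 in the pooled comparison (limma adjusted p = 0.0440) and -0.97 with sh4 (limma adjusted p = 0.00567). The pooled call held in 8 of 17 alternatives. BHLHE41, a repressor of the wider family, changed by -0.69 with sh4 (limma adjusted p = 0.00652). Both calls with sh4 were lost without the second sh4 library.

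**Figure D4:**
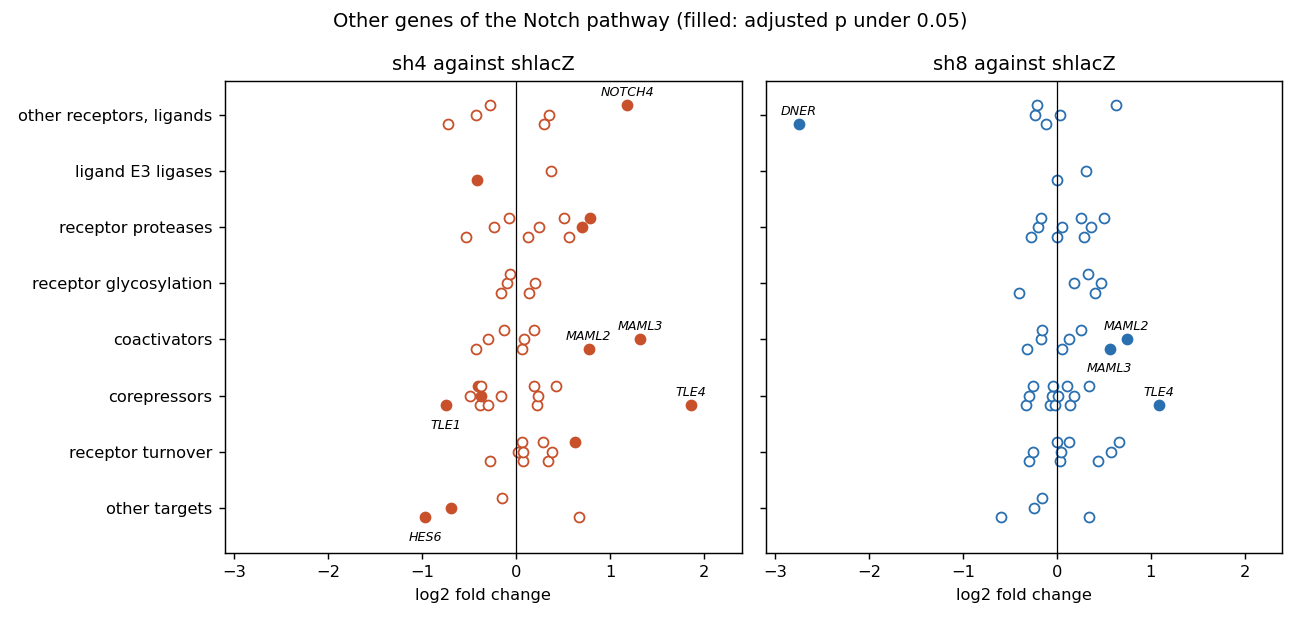
log2 fold change against shlacZ (horizontal axis) of the 56 other pathway genes tested, in rows by list, with sh4 (left) and sh8 (right), 1 point per gene, offset vertically within a row only for legibility. Filled points passed at an adjusted p below 0.05, 13 with sh4 and 4 with sh8, and TLE4 and MAML3 lie farthest right with sh4 at 1.86 and 1.32.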

How the data were processed

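Total RNA of 7 doxycycline-induced 501Mel libraries (3 shlacZ, 2 sh4, 2 sh8, grouped by title) was extracted with TRIzol, depleted of rRNA, made into stranded libraries and sequenced on a NovaSeq. The authors trimmed reads with Cutadapt, mapped them with STAR to hg38, quantified genes with Salmon and normalized in DESeq2. Versions, annotation and strand setting were not given in the sources used here. The deposited table holds counts that the authors divided by a DESeq2 size factor for each library, written with decimal commas, and no gene in it had fewer than 10 reads over all libraries. All values were whole reads after division by the value of 1 read. No columns of other samples were used.

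Tests were run with limma 3.58.1 (R 4.3.3, empirical Bayes with variance trend, two-sided) on log2(value + 1), so fold changes of low genes are understated; genes needed a mean of at least 10, p-values were adjusted by Benjamini-Hochberg over 15420 genes, and calls were made at 0.05. Pooled knockdown was fitted with 2 levels, the hairpins with 3 groups. A count test was replaced by limma because the values are normalized. Fits were tested on simulated data. Gene coordinates and exon lengths came from GENCODE 44, which matched 99.9% of identifiers, and promoters from RefSeq. Members, lists and tests were chosen with earlier results of these data known. All 10 members were named, with up to 3 genes of each list lowest in p with sh4 and 2 with sh8, GRASLND, and the 3 genes most like a member that passed with a log2 change over 1. SPEN, DTX3L, MAML1, the NOTCH2NL genes, FAM120B and the marker genes were named after their values were seen. Alternatives were other pseudocounts (0.5, 10), no minimum mean, other scalings, no variance trend, limma-voom on recovered reads, a replicate block, other groupings of the fit, and leaving out each library. Correlations of same-numbered libraries ran from -0.08 to 0.34, and numbers were not taken as pairs.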

Additional observations from a re-analysis of the deposited data

Results flagged for a closer look

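Results of 2 genes differed between the hairpins by a direct test in limma. HES1 was lower with sh4 than with sh8 by a log2 difference of -0.71 (adjusted p = 0.0259, both sh4 libraries below both sh8 libraries). HEY2 was higher with sh4 than with sh8 by 0.78 (adjusted p = 0.0483, both sh4 libraries above both sh8 libraries). Both hairpins target GRASLND, which stood at 175 and 131 normalized counts with sh4 and 227 and 163 with sh8, overlapping ranges, and the part of that level in either difference was not tested. The summed melanocytic markers were 5.23e+04 to 6.01e+04 with sh4 and 1.02e+05 to 1.05e+05 with sh8, in the same direction as HES1, and their part in it was not tested.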

How the results depend on the processing

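Of 322 values of single members under alternatives, over 19 results, 280 kept their direction and side of the threshold. A further 36 kept the direction but no longer passed, 2 newly passed and 4 changed sign. These results were the pooled one of each member and, in the other comparisons, only those that passed as reported. New passes outside the pooled comparison were therefore not in this tally. Under some alternatives NOTCH1 or NOTCH3 newly passed with sh4, and HEY1 between the hairpins. The sign changes were small and concerned values that passed nowhere, NOTCH2 pooled under quantile normalization (0.065) and DLL1 pooled under quantile normalization (-0.085) and without the first shlacZ (-0.0077) or second sh8 library, with a range of -0.14 to 0.14 over all libraries left out. The number of members passing in the pooled comparison was 2, and it was 0 without the variance trend, 0 with a replicate block and 4 when the mean of both hairpins was taken in the 3-group fit, with HEY1 and HEY2 added; without single libraries it ran from 0 to 2. With sh4 it was 5 and ran from 2, without the second sh4 library, to 6. With sh8 it was 2, it was 0 without the variance trend, and it ran from 0 to 2 without single libraries. Between the hairpins it was 2, it was 1 without a minimum mean and 0 without the variance trend, and it ran from 0 to 3 without single libraries. The pooled log2 fold change of GRASLND was -0.85 (limma adjusted p = 0.0402) and no longer passed without the variance trend (-0.85, limma adjusted p = 0.0805), with the replicate block (-0.90, limma adjusted p = 0.150) and without 6 of the 7 single libraries (range over all 7 from -0.99 to -0.73). The replicate block took the calls over all genes from 711 to 42 pooled and from 3464 to 3376 with sh4. They rose from 451 to 574 with sh8 and from 1079 to 1467 between the hairpins. Replicate number 3 occurred only in shlacZ. With the block, the pooled log2 fold changes of JAG1 (-0.75) and HES1 (-1.18) equalled those without shlacZ library 3, a fit in which 88 genes passed. Correlations of same-numbered libraries ran from -0.08 to 0.34, and the numbers were not taken as pairs. The cause of these shifts was not tested. With 2 libraries per hairpin, leaving one out assumes that the other varies like the other groups, and low counts limit NOTCH3, NOTCH4 and DNER.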
